A study of Homo sapiens with 21 samples.

Results

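The aldehyde dehydrogenase genes ALDH1A1, ALDH1A3, ALDH2, ALDH3A1, ALDH3A2, ALDH3B1, ALDH7A1 and ALDH9A1, 8 in all and chosen by symbol, were read out in RNA sequencing of H1975, a lung adenocarcinoma cell line with mutant EGFR. All 8 had a row in a table of 34021 genes, and the other 11 genes of the human family were read beside them. The 9 libraries came from 3 groups of 3, each labelled as treated for 8 days. OL+EV cells, of wild-type genotype in the labels, received 500 nM osimertinib, which blocks mutant EGFR covalently, and 500 nM linsitinib, which blocks the IGF1 and insulin receptor kinases. OC cells received 500 nM osimertinib and overexpressed cIGF1R, a circular RNA of the IGF1R gene. DMSO+EV cells, also labelled wild type, received the vehicle. EV stands in the titles of OL+EV and DMSO+EV and is not spelled out, and the title and labels of OC do not name it. All 3 groups are 1 cell line. No group with osimertinib alone was analysed here, so in each treated group the drug and its partner changed together.

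Aldehyde dehydrogenases use NAD+ or NADP+ to oxidise aldehydes to carboxylic acids, which clears reactive aldehydes made by lipid peroxidation, amine breakdown and alcohol metabolism. The ALDH1A enzymes also turn retinaldehyde into retinoic acid, a ligand of nuclear receptors. High aldehyde dehydrogenase activity is widely used to sort stem-like tumour cells, and it has been described in lung cancer cells that persist under EGFR inhibitors. The labels do not call the cells of any group persisters, and the table holds no measure of persistence.

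Values were taken as FPKM, fragment counts scaled for gene length and library size, so that levels of different genes can be compared. Ranks, sums and shares across genes hold only under this unit. The unit was judged from the values, since the table names none. Column totals lay between 338034 and 474156 FPKM, and read depth is unknown. Markers of an epithelial line were abundant in every library, with KRT8 at 4015 to 6480, EPCAM at 86 to 112 and EGFR at 30.4 to 60.7 FPKM. Summed over 7 such markers, the level was 13270 to 14440 FPKM in OL+EV, 12490 to 15230 in OC and 11260 to 12520 in DMSO+EV. DMSO+EV replicate 2 stood apart in short noncoding RNAs, with 443 FPKM of RN7SL1 against 36.1 and 46.4 in the other DMSO+EV libraries, as did OC replicate 1 with 53.2 against 3.16 and 6.37 in the other OC libraries. No call on the 8 genes changed when either of these libraries was left out. The extraction protocol given for every sample names RNase R, which degrades linear RNA, and use of this enzyme on these 9 libraries is unclear. That protocol also speaks of 3 days of treatment, whereas the labels of these libraries give 8. Separate cultures are not stated for the replicates, and p-values therefore cover a spread that may be only technical.

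The stretches upstream of ALDH1A1 and ALDH1A3 are shown because these closely related genes moved in opposite directions. Each is the 250 bases before the annotated start site in RefSeq (GRCh38.p14), 5′ to 3′ on the gene's strand. The ALDH1A1 stretch lies at chr9:72953054-72953303 on the minus strand and the ALDH1A3 stretch at chr15:100879581-100879830 on the plus strand. Capitals mark matches, on either strand, to CCAAT (the CCAAT box) and GCGTG (the core of the site bound by the AHR receptor), which do not overlap here.
ALDH1A1: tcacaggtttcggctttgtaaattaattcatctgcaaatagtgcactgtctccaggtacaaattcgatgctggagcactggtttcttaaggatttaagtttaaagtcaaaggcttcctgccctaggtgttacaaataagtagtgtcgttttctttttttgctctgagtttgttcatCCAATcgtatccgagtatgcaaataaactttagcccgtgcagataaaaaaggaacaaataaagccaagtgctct
ALDH1A3: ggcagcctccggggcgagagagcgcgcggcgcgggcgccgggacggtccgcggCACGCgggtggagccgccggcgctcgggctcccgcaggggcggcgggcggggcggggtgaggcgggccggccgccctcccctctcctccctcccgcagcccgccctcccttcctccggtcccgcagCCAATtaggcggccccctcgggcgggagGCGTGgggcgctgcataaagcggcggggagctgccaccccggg
The ALDH1A1 stretch was 38.4% G and C and the ALDH1A3 stretch 82.4%, against a median of 58% over 35116 such windows. Both held 1 CCAAT box, starting 74 bases before the start site in ALDH1A1 and 71 in ALDH1A3. A CCAAT box was present in 32% of all windows. GCGTG occurred in ALDH1A3, at 197 and 43 bases before the start, and not in the ALDH1A1 window, while 32.2% of all windows held it. Also searched on both strands were TGANTCA (the AP-1 motif, in 6.57% of all windows), TGACNNNGC (the antioxidant response element core, 10.9%), GAAA followed after a gap of 2 bases by another GAAA (the interferon-stimulated response element, 3.02%), TGTTTAC (a forkhead motif, 2.98%) and TATAAA (10.7%). None of these 5 was found in the windows of the 6 genes with an entry, which were those above and ALDH3A2, ALDH3B1, ALDH7A1 and ALDH9A1. Which start site H1975 uses was not measured.

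ALDH1A1 (chromosome 9 from 72900671 to 72953053), a cytosolic enzyme that oxidises retinaldehyde and the usual marker of stem-like tumour cells, was scarce in vehicle and far higher in both treated groups. It stood at 4.91, 3.64 and 3.69 FPKM in OL+EV, at 8.59, 8.65 and 10.6 in OC and at 0.751, 0.967 and 0.992 in DMSO+EV. The 3 groups did not overlap, with OC highest and DMSO+EV lowest. The mean rose 4.51-fold in OL+EV and 10.3-fold in OC over DMSO+EV. On the log2(FPKM + 1) scale, which understates changes of low genes, the differences were 1.41 (SE 0.12) and 2.43 (SE 0.12). In the fit with no filter on low values their limma adjusted p-values were 0.000104 and 1.97e-06. With pseudocounts of 5 and 0.1 in place of 1 these became 0.62 and 2.05 for OL+EV, and 1.27 and 3.23 for OC. In bulk RNA, more cells with ALDH1A1 and more ALDH1A1 mRNA per cell cannot be told apart. Because all 3 DMSO+EV libraries lay under 1 FPKM, ALDH1A1 entered the filtered test only through the treated groups, where it is high, and the p-values given here are those that do not depend on the filter.

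ALDH1A3 (chromosome 15 from 100879831 to 100916626), the other retinaldehyde dehydrogenase of note here, fell in both treated groups. Its levels were 19.2, 19.4 and 18 FPKM in OL+EV, 13.7, 12.7 and 13.5 in OC and 22.8, 28.3 and 31 in DMSO+EV. Again no groups overlapped, but the order was the reverse of that of ALDH1A1. The OL+EV mean was 68.9% of the DMSO+EV mean (log2 difference -0.50, SE 0.11, limma adjusted p = 0.00142) and the OC mean 48.6% of it (-0.98, SE 0.11, limma adjusted p = 2.56e-06). The third retinaldehyde dehydrogenase, ALDH1A2, did not exceed 0.344 FPKM in any library and was not tested. An antisense gene, ALDH1A3-AS1, overlaps ALDH1A3 in the annotation, and without a stated use of strand the reads of the pair cannot be told apart. Other annotated genes overlap ALDH2, ALDH3A2, ALDH3B1, ALDH7A1 and ALDH9A1. Those that overlap ALDH9A1, RPS13P1 and RPL21P27, have values of their own in these data.

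Adding ALDH1A1, ALDH1A2 and ALDH1A3, a sum chosen after the values were seen, gave 23 ± 1.24 FPKM in OL+EV, 22.8 ± 1.32 in OC and 28.3 ± 4.32 in DMSO+EV (SD, n = 3). The ranges of the sum overlapped: 21.7 to 24.2 in OL+EV, 21.7 to 24.3 in OC and 23.6 to 32.1 in DMSO+EV. What ALDH1A1 contributed to it was 15.7% to 20.3% in OL+EV, 38.1% to 43.6% in OC and 3.09% to 3.3% in DMSO+EV. The groups thus overlapped in the size of the sum and not in the share of ALDH1A1.

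**Figure D1:**
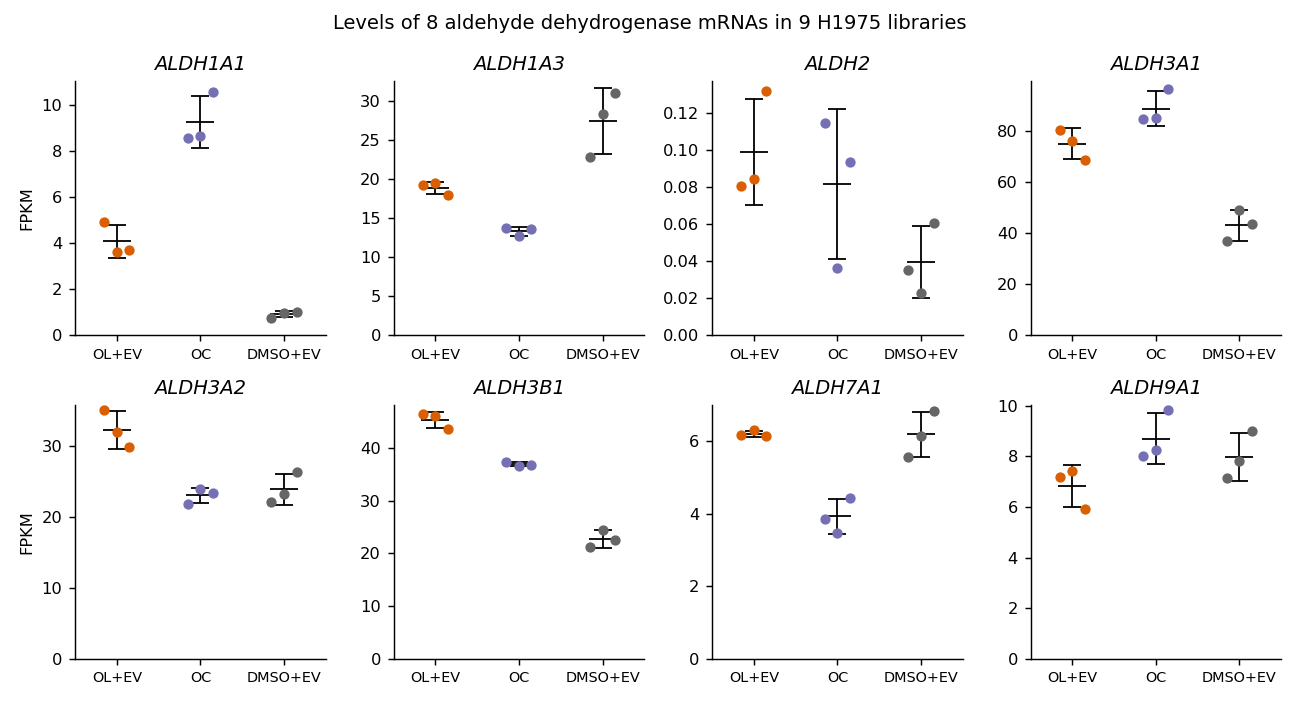
FPKM of each of the 8 aldehyde dehydrogenase genes in OL+EV, OC and DMSO+EV. Points are single libraries, and the bar and whiskers are the mean and SD (n = 3). ALDH1A1 runs from 0.751 to 10.6 FPKM with no overlap of groups, ALDH1A3 runs in the opposite order, and no library of ALDH2 exceeds 0.131 FPKM.

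ALDH3A1 was the most abundant gene of the family in every group, and ALDH3A1 and ALDH3B1 rose in both treated groups. ALDH3A1 (chromosome 17 from 19737984 to 19748298) encodes an enzyme for medium-chain and lipid-derived aldehydes that is abundant in the cornea. It reached 80.6, 76 and 68.5 FPKM in OL+EV and 84.7, 85.2 and 96.6 in OC, against 36.8, 49 and 43.4 in DMSO+EV. Every treated library was above every DMSO+EV library. ALDH3A1 was 1.74-fold higher in OL+EV (log2 difference 0.79, SE 0.12, limma adjusted p = 7.01e-05) and 2.06-fold higher in OC (1.03, SE 0.12, limma adjusted p = 2.96e-06).

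ALDH3B1 (chromosome 11 from 68008547 to 68029276), which acts on aldehydes from lipid peroxidation, had its highest levels in OL+EV. Its values were 46.4, 46 and 43.5 FPKM in OL+EV, 37.4, 36.6 and 36.7 in OC and 21.2, 24.4 and 22.6 in DMSO+EV. The groups were well separated. Against DMSO+EV the mean was 1.99-fold higher in OL+EV (log2 difference 0.97, SE 0.09, limma adjusted p = 7.86e-07) and 1.62-fold higher in OC (0.68, SE 0.09, limma adjusted p = 9.99e-06). Reads could be split between ALDH3B1 and its close paralogue ALDH3B2, 327 kb away on the same chromosome, and how the counting treated shared reads is not given in the sources used here.

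ALDH3A2 (chromosome 17 from 19648136 to 19677596), the fatty aldehyde dehydrogenase of the endoplasmic reticulum, lies 60.4 kb from ALDH3A1 and did not follow it. ALDH3A2 stood at 35.2, 32 and 29.9 FPKM in OL+EV, 21.9, 24 and 23.3 in OC and 22.1, 23.3 and 26.4 in DMSO+EV. OL+EV lay above both other groups, which overlapped. It rose 1.35-fold in OL+EV over DMSO+EV (log2 difference 0.42, SE 0.10, limma adjusted p = 0.0025). In OC the difference from DMSO+EV was -0.05 with a 95% interval of -0.26 to 0.16 (limma adjusted p = 0.677), and it was 0.02 after rescaling to equal totals without mitochondrial genes or without DMSO+EV replicate 3.

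Of the remaining 3 genes, 1 was almost silent, 1 was lower in OC than in both other groups and 1 did not pass against vehicle. ALDH2 (chromosome 12 from 111766933 to 111817532), the mitochondrial enzyme that clears acetaldehyde, had 0.0807, 0.0841 and 0.131 FPKM in OL+EV, 0.115, 0.0364 and 0.0935 in OC and 0.0351, 0.0225 and 0.0607 in DMSO+EV. These levels lie below the filter of 1 FPKM, so ALDH2 was not tested and no change is read from them. ALDH7A1 (chromosome 5 from 126541841 to 126595219) acts in lysine breakdown. It stood at 6.18, 6.3 and 6.14 FPKM in OL+EV, 3.87, 3.48 and 4.44 in OC and 5.58, 6.14 and 6.83 in DMSO+EV. The OC libraries lay below all others. The OC mean was 63.6% of the DMSO+EV mean (log2 difference -0.54, SE 0.10, limma adjusted p = 0.000333, and -0.33 with a pseudocount of 5). In OL+EV the difference was 0.01 with a 95% interval of -0.21 to 0.23 (limma adjusted p = 0.956), and its sign turned under 4 of the alternatives given in the closing part on processing.

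ALDH9A1 (chromosome 1 from 165662216 to 165698562) oxidises an aldehyde intermediate of carnitine synthesis. Its levels were 7.17, 7.43 and 5.9 FPKM in OL+EV, 8.01, 8.25 and 9.84 in OC and 7.13, 7.81 and 9.01 in DMSO+EV. Both treated groups overlapped DMSO+EV. The log2 difference from DMSO+EV was -0.20 in OL+EV (95% interval -0.45 to 0.05, limma adjusted p = 0.167) and 0.11 in OC (-0.14 to 0.36, limma adjusted p = 0.404).

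In OL+EV against DMSO+EV, then, 4 of the 7 tested genes rose (ALDH1A1, ALDH3B1, ALDH3A1 and ALDH3A2), 1 fell (ALDH1A3) and 2 did not pass. Without ALDH1A1, whose entry rests on the treated groups, 3 of 6 rose and 1 fell. Over all 13775 genes tested, 52.6% passed in that comparison, 29.0% upward and 23.5% downward. The libraries did not overlap for 5 of the 7 (61.9% of all genes), and 1, ALDH1A1, was called with a log2 difference of at least 1 (9.19% of all genes). In OC against DMSO+EV 3 rose (ALDH1A1, ALDH3A1 and ALDH3B1), 2 fell (ALDH1A3 and ALDH7A1) and 2 did not pass. Without ALDH1A1, 2 of 6 rose and 2 fell. In this comparison 69.0% of all genes passed, 33.1% upward and 35.8% downward. Here too 5 of the 7 did not overlap (69.8% of all genes), and 2, ALDH1A1 and ALDH3A1, were called with a log2 difference of at least 1 (21.8% of all genes). With so many genes called, passing the test does not set these genes apart. The signed log2 difference was therefore placed among all genes. A place leaves out genes with a larger fall, so it does not rank the size of change in either direction. In OC, ALDH3A1 differed by 1.03, while 21.8% of all genes were called at 1 or more either way. Places are given only for the genes that rose in both treated groups. They hold on the log2(FPKM + 1) scale, which understates changes of low genes. For ALDH3A1, 6.82% of genes had a larger log2 difference in OL+EV and 9.81% in OC, and for ALDH3B1 4.04% and 17.2%. For ALDH1A1 these shares were 1.17% and 1.92%, but it was ranked only because the treated groups carried it past the filter. Its calls of at least 1 against DMSO+EV share that limit. Over the alternatives, its log2 difference ran from 0.618 to 2.05 in OL+EV and from 1.27 to 3.23 in OC. The median log2 difference of the 7 genes was 0.42 in OL+EV and 0.11 in OC (0.21 and 0.03 without ALDH1A1), beside 0.05 and -0.03 over all genes. Both comparisons use the same 3 DMSO+EV libraries.

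**Figure D2:**
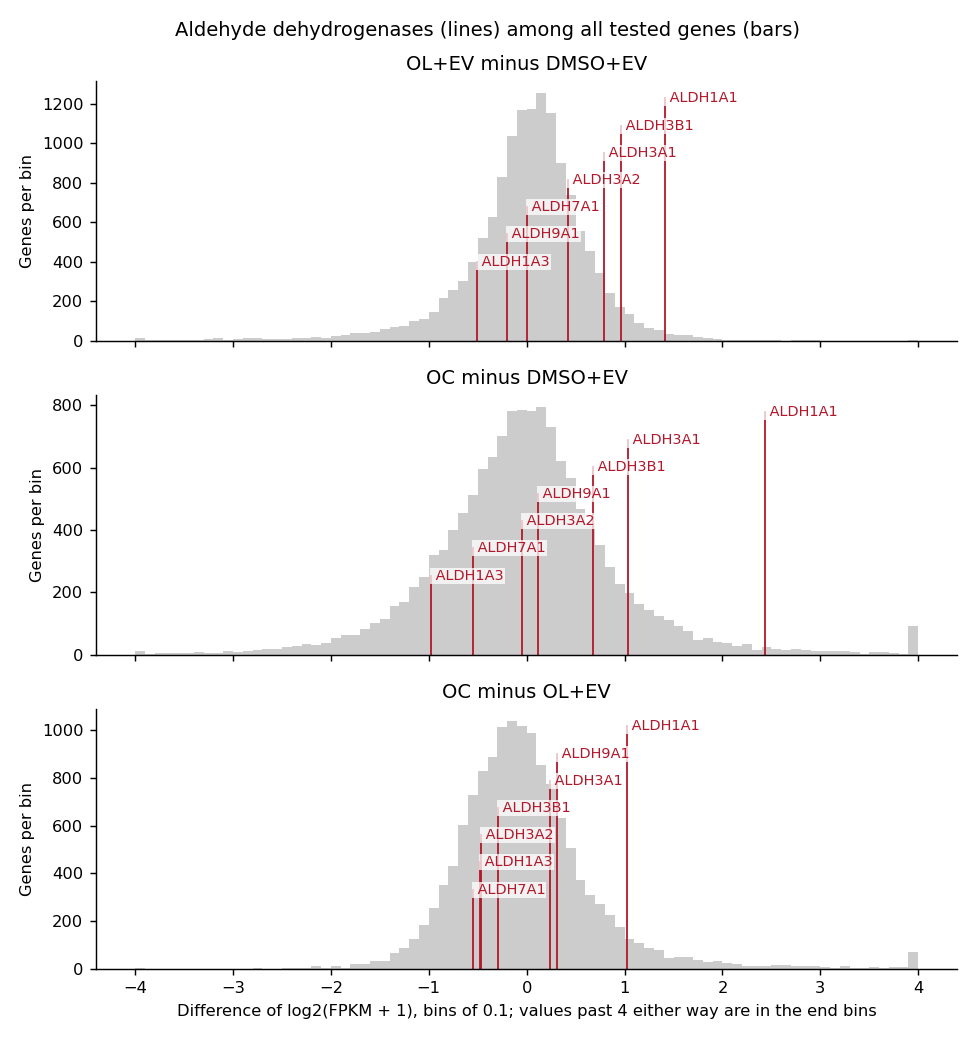
Histograms of the log2(FPKM + 1) difference of all 13775 tested genes with red lines at the 7 tested aldehyde dehydrogenases, for OL+EV minus DMSO+EV (top), OC minus DMSO+EV (middle) and OC minus OL+EV (bottom). ALDH1A1 lies in the right tail of each, at 1.41, 2.43 and 1.02, and ALDH1A3 left of the centre in each. ALDH1A1 passed the filter only through the treated groups, as every DMSO+EV library lay under 1 FPKM.

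OC was also compared directly with OL+EV. Here 2 of the 7 genes were higher in OC and 4 lower, where 60.7% of all genes passed, 25.9% upward and 34.8% downward. The libraries of the 2 groups did not overlap for any of the 7 (68.1% of all genes), and 1, ALDH1A1, was called with a log2 difference of at least 1 (11% of all genes). ALDH1A1 averaged 9.27 ± 1.13 FPKM in OC and 4.08 ± 0.719 in OL+EV (SD, n = 3), a 2.27-fold difference (log2 difference 1.02, SE 0.12, limma adjusted p = 1.02e-05, and 0.65 with a pseudocount of 5). ALDH7A1 (log2 difference -0.55, limma adjusted p = 0.000429, and -0.33 with a pseudocount of 5), ALDH1A3 (-0.47, limma adjusted p = 0.0019), ALDH3A2 (-0.47, limma adjusted p = 0.00101) and ALDH3B1 (-0.29, limma adjusted p = 0.0103) were lower in OC. ALDH3A1 averaged 88.8 ± 6.74 FPKM in OC and 75.1 ± 6.11 in OL+EV (SD, n = 3), and its difference of 0.24 did not pass (95% interval -0.01 to 0.49, limma adjusted p = 0.0858). It did pass after median-of-ratios rescaling (limma adjusted p = 0.0115), after scaling non-mitochondrial totals to be equal (0.0191) and without DMSO+EV replicate 1 (0.0472). Adjusted p-values ran between 0.0115 and 0.268 over all alternatives. ALDH9A1 averaged 8.7 ± 0.996 FPKM in OC and 6.83 ± 0.82 in OL+EV (SD, n = 3) and passed narrowly as the second higher gene (log2 difference 0.31, SE 0.12, limma adjusted p = 0.033). That call was lost without OC replicate 3 (0.23, limma adjusted p = 0.114), without OL+EV replicate 3 (0.22, 0.151), with no filter on low values (0.31, 0.0947) and in 1 further alternative given in the closing part, 4 of 19 in all. Over all alternatives its adjusted p-values ran between 0.00537 and 0.151.

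**Figure D3:**
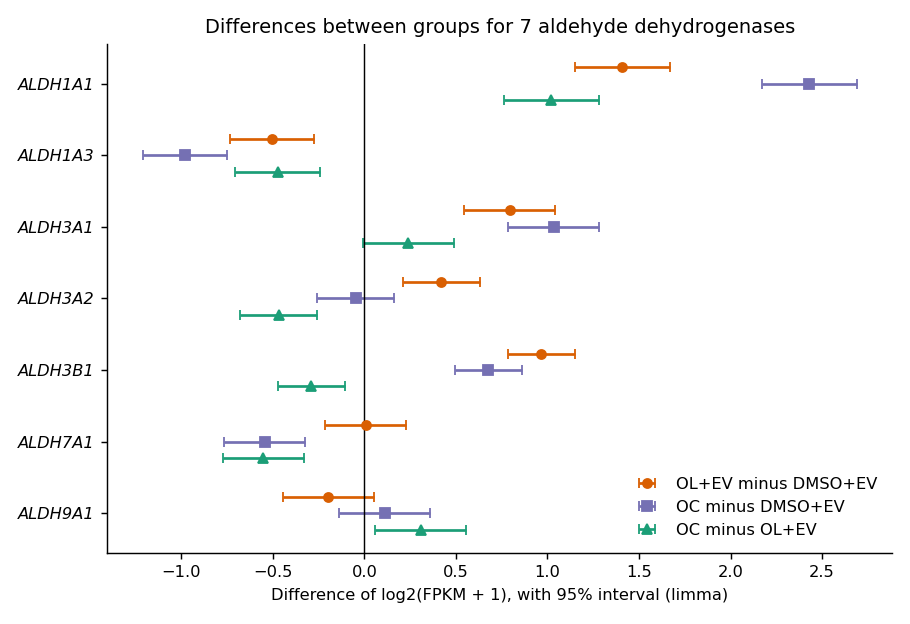
Differences of log2(FPKM + 1) with their 95% intervals for the 7 tested aldehyde dehydrogenases, in OL+EV minus DMSO+EV (circles), OC minus DMSO+EV (squares) and OC minus OL+EV (triangles). For ALDH1A1 all 3 intervals lie right of 0, for ALDH1A3 all 3 lie left of it, and the circle of ALDH7A1 sits at 0.01.

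Summed over the 8 genes, the level was 189 ± 12.2 FPKM in OL+EV, 184 ± 9.53 in OC and 132 ± 13.7 in DMSO+EV (SD, n = 3). The lowest treated library, at 176 FPKM, was above the highest DMSO+EV library, at 140. ALDH3A1 was the largest part everywhere, with 39% to 40.3% of the sum in OL+EV, 47.5% to 49.5% in OC and 30.9% to 35% in DMSO+EV. ALDH1A3 made up 9.62% to 10.2% in OL+EV and 6.94% to 7.71% in OC, against 19.6% to 22.1% in DMSO+EV, where it ranked second among the 8 with levels that overlapped those of ALDH3A2. Even in OC, ALDH1A1 was 4.82% to 5.42% of the sum. Despite its fold change it was a small part of the total. The order in DMSO+EV was ALDH3A1, ALDH1A3, ALDH3A2, ALDH3B1, ALDH9A1, ALDH7A1, ALDH1A1 and ALDH2, where ALDH1A3 and ALDH3A2 overlapped, as did ALDH3A2 and ALDH3B1.

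**Figure D4:**
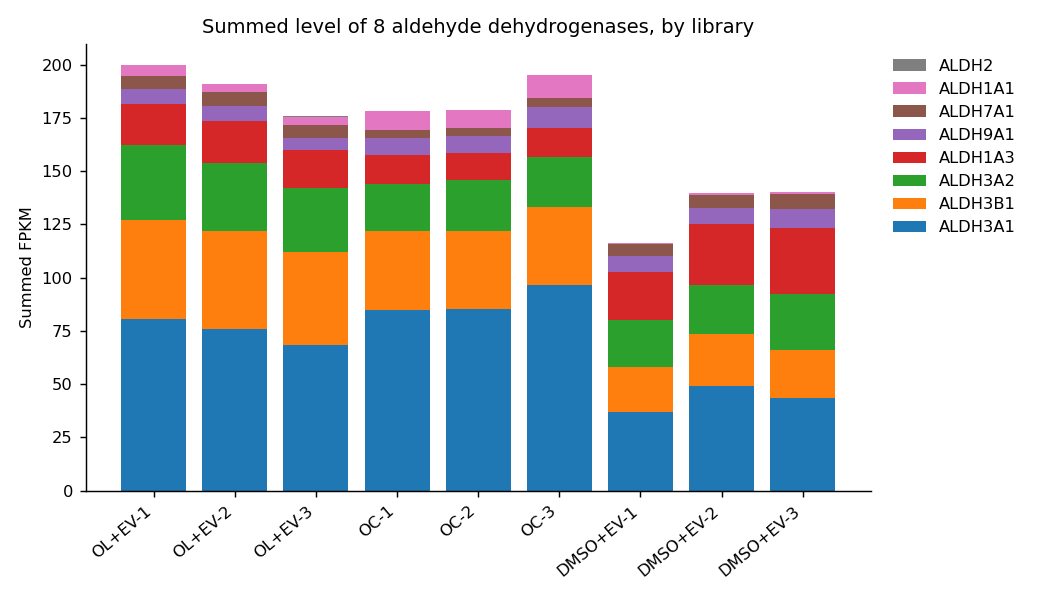
Stacked bars of the FPKM of the 8 aldehyde dehydrogenases in each library, with OL+EV at left, OC in the middle and DMSO+EV at right. The bars reach 176 to 200 in OL+EV, 178 to 195 in OC and 116 to 140 in DMSO+EV, and the segments of ALDH3A1 and ALDH3B1 are taller in the treated libraries.

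Among the 11 other genes of the family, 7 were tested, and ALDH3B2 changed most. ALDH3B2, the paralogue of ALDH3B1, averaged 19.1 ± 1.97 FPKM in OL+EV, 40.7 ± 1.66 in OC and 7.73 ± 0.788 in DMSO+EV (SD, n = 3), which is 2.47-fold and 5.27-fold higher (log2 differences 1.20 and 2.26, limma adjusted p = 4.73e-07 and 3.19e-10). In OC it passed ALDH3B1 and was the second most abundant gene of the family. ALDH6A1, a mitochondrial enzyme of valine breakdown, stood at 5.65 ± 0.367 FPKM in OL+EV, 8.91 ± 0.179 in OC and 3.14 ± 0.673 in DMSO+EV. Another annotated gene, BBOF1, overlaps ALDH6A1, and GPLD1 and LOC124901277 overlap ALDH5A1. ALDH5A1, which oxidises succinic semialdehyde from GABA, averaged 7 ± 0.225 FPKM in OL+EV, 4.76 ± 0.19 in OC and 4.42 ± 0.541 in DMSO+EV, and rose in OL+EV (log2 difference 0.57, limma adjusted p = 0.000251) with no call in OC (0.09, 0.413). ALDH16A1, a family member that lacks the catalytic cysteine, fell to 19 ± 1.05 FPKM in OL+EV and 17.7 ± 2.62 in OC, against 28.4 ± 1.82 in DMSO+EV. In all, 4 of the 7 rose and 2 fell in OL+EV, where 29.0% of all genes rose and 23.5% fell. In OC 3 rose and 2 fell, where 33.1% of all genes rose and 35.8% fell. Against OL+EV, 3 were higher in OC and 2 lower, where 25.9% of all genes were higher and 34.8% lower. The 4 untested genes (ALDH1A2, ALDH1L1, ALDH1L2 and ALDH8A1) reached at most 0.803 FPKM.

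Taking the ALDH3 genes together, a sum also chosen after the values were seen, the level was 172 ± 12 FPKM in OL+EV, 189.5 ± 5.22 in OC and 97.4 ± 9.43 in DMSO+EV (SD, n = 3). This was 64.1% to 65% of the summed FPKM of all 19 family genes in OL+EV, 67% to 68.6% in OC and 47.4% to 49.6% in DMSO+EV.

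**Figure D5:**
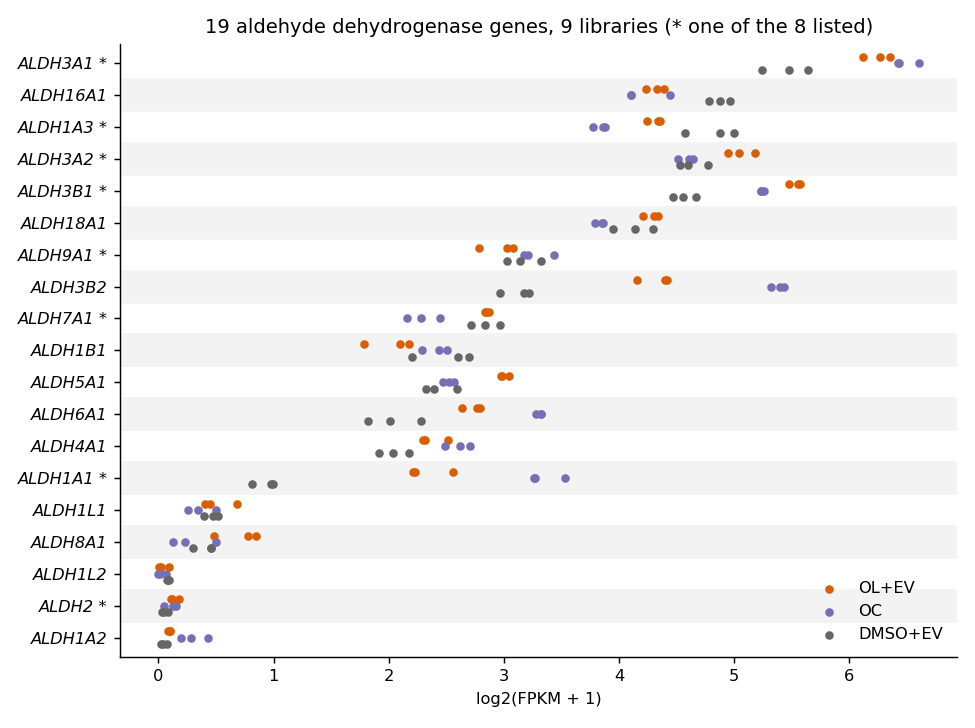
Levels of all 19 aldehyde dehydrogenase genes as log2(FPKM + 1), with 1 point per library and genes ordered by their DMSO+EV mean. Within a gene, OL+EV is the upper row, OC the middle and DMSO+EV the lower, and an asterisk marks the 8 listed genes. ALDH3A1 is at the top in every library, and the points of ALDH1A1 and ALDH3B2 are the most spread between groups.

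Genes around these enzymes were read from lists, whose counts are to be read against the shares over all tested genes. These were 29.0% up and 23.5% down in OL+EV (median log2 difference 0.05), and 33.1% up and 35.8% down in OC (median -0.03). Some genes were tested although every library of a compared group lay below 1 FPKM, and counts without them, added after the data were seen, are given beside the list. Of 20 genes with a row in a list of aldehyde and ketone reductases, alcohol dehydrogenases and aldehyde oxidase, 16 were tested. In OL+EV 5 rose and 3 fell (median log2 difference 0.15), and in OC 4 rose and 6 fell (-0.11), so that the share called was near that of all genes. Without genes below 1 FPKM in a compared group, 5 of 15 rose and 2 fell in OL+EV, and 4 of 14 rose and 4 fell in OC. AKR1B1, aldose reductase, stood far above any aldehyde dehydrogenase and fell to 825 ± 91.6 FPKM in OL+EV and 400 ± 64.4 in OC, against 1358 ± 135 in DMSO+EV (SD, n = 3; log2 differences -0.72 and -1.77). AKR1B10, a reductase that also acts on retinaldehyde, averaged 487 FPKM in OL+EV, where it did not pass, 266 ± 22.7 in OC, where it fell, and 429 ± 43.1 in DMSO+EV. AOX1, aldehyde oxidase, averaged 0.17 ± 0.0674 FPKM in OL+EV and 0.259 ± 0.0507 in OC, against 1.68 ± 0.488 in DMSO+EV. It passed the filter only through DMSO+EV, and with no filter its limma adjusted p-values were 0.000284 and 0.00023.

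For the retinoid pathway that ALDH1A1 and ALDH1A3 feed, 14 genes of metabolism and transport were tested. Over all tested genes, 29.0% rose and 23.5% fell in OL+EV (median 0.05), and 33.1% rose and 35.8% fell in OC (median -0.03). Of the 14, 2 rose and 3 fell in OL+EV (median 0.14), while 9 rose and 2 fell in OC (median 0.39). Without genes below 1 FPKM in a compared group, 2 of 11 rose and 2 fell in OL+EV, and 7 of 11 rose and 1 fell in OC. DHRS9, a retinol dehydrogenase upstream of the ALDH1A step, averaged 0.204 ± 0.0564 FPKM in OL+EV, where it did not pass, and 7.29 ± 0.756 in OC, against 0.135 ± 0.0729 in DMSO+EV (SD, n = 3). CYP26B1, which degrades retinoic acid, fell to 1.3 ± 0.0738 FPKM in OL+EV and 0.341 ± 0.0362 in OC, against 3.11 ± 0.173 in DMSO+EV. BCO1, which cleaves beta-carotene to retinaldehyde, averaged 3 ± 0.207 FPKM in OC, against 0.183 ± 0.0237 in DMSO+EV. Both DHRS9 and BCO1 passed the filter only through OC, and with no filter their limma adjusted p-values in OC against DMSO+EV were 1.46e-07 and 1.23e-06. Of 10 receptors and responsive genes tested, 5 rose and 3 fell in OL+EV (median 0.29) and 7 rose and 1 fell in OC (median 0.59). The shares called in either direction over all genes were 52.6% in OL+EV and 69.0% in OC. Without TGM2, which was below 1 FPKM in every OL+EV library, 5 of 9 rose and 2 fell in OL+EV. They did not move as one: TGM2, a transglutaminase induced by retinoic acid in many cells, fell to 0.494 ± 0.144 FPKM in OL+EV and rose to 34.1 ± 3.45 in OC, against 26.8 ± 4.35 in DMSO+EV (log2 differences -4.21 and 0.35, limma adjusted p = 5.65e-07 with no filter and 0.0261). PLAAT4 rose to 14.2 ± 1.33 FPKM in OL+EV and 305 ± 61.1 in OC, against 4.37 ± 0.641 in DMSO+EV, and it is known to respond to interferon as well as to retinoids. RXRA, the partner of the retinoic acid receptors, rose to 35.8 FPKM in OL+EV and 42.2 in OC, against 19.2 in DMSO+EV (log2 differences 0.87 and 1.10).

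Among 10 tested enzymes that form endogenous aldehydes, 2 rose and 3 fell in OL+EV (median 0.09), and 4 rose and 2 fell in OC (median 0.09). Over all genes, 29.0% rose and 23.5% fell in OL+EV, and 33.1% rose and 35.8% fell in OC. Without genes below 1 FPKM in a compared group, 2 of 9 rose and 2 fell in OL+EV, and 3 of 8 rose and 1 fell in OC. SGPL1, the sphingosine phosphate lyase whose fatty aldehyde product is a substrate of ALDH3A2, rose to 33.6 ± 1.31 FPKM in OL+EV and 39.8 ± 2.53 in OC, against 14.6 ± 1.5 in DMSO+EV (SD, n = 3). SMOX, spermine oxidase, fell to 13.3 ± 1.38 FPKM in OL+EV and 12.6 ± 1.39 in OC, against 23.1 ± 1.39 in DMSO+EV. ALDH3A1 is known as a target of the NRF2 and AHR transcription factors. All 14 genes of the NRF2 list were tested, and 5 rose and 5 fell in OL+EV, and 5 rose and 6 fell in OC (medians 0.12 and -0.01), where 52.6% and 69.0% of all genes were called in either direction. HMOX1, heme oxygenase, rose to 20.3 ± 1.05 FPKM in OL+EV and 17.8 ± 1.16 in OC, against 6.58 ± 0.587 in DMSO+EV. SLC7A11, the cystine transporter, fell to 4.3 ± 0.134 and 2.52 ± 0.263 FPKM in OL+EV and OC, against 8.57 ± 1.21 in DMSO+EV. Of the AHR list 5 genes were tested, with 1 up and 1 down in OL+EV and 4 up and 1 down in OC (medians 0.04 and 0.47), where 33.1% of all genes rose and 35.8% fell. CYP1B1, a classical AHR target, averaged 8.82 ± 1.26 FPKM in OL+EV, where it did not pass, 43.9 ± 3.59 in OC, where it rose, and 7.11 ± 1.65 in DMSO+EV. AHR itself fell in OL+EV and rose in OC (log2 differences -0.44 and 0.47). The 1 gene of the list that fell in OC was NQO1, which is also on the NRF2 list (log2 difference -0.40, limma adjusted p = 0.00447). CYP1A1, another AHR target, did not exceed 0.0276 FPKM in any library and was not tested.

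In a list of persister and stem cell markers, 12 of 18 genes were tested. In OL+EV 4 rose and 2 fell (median 0.09), and in OC 6 rose and 3 fell (median 0.42), beside 52.6% and 69.0% of all genes called in either direction. CD44, an adhesion receptor often used beside ALDH activity to mark stem-like cells, fell to 27.8 ± 0.186 FPKM in OL+EV and 17.4 ± 0.82 in OC, against 106 ± 9.93 in DMSO+EV (SD, n = 3), the opposite direction to ALDH1A1. CD24 rose to 92.4 ± 6.69 FPKM in OL+EV and 154 ± 8.35 in OC, against 43.2 ± 9.57 in DMSO+EV. NT5E rose to 72.7 ± 4.66 FPKM in OC, against 20.3 ± 4.93 in DMSO+EV, and did not pass in OL+EV. AXL fell in OL+EV (log2 difference -0.62) and did not pass in OC.

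Over the 9 libraries, the genes whose log2 pattern was most like that of each enzyme were sought among 6154 tested genes that spanned at least 1 on the log2 scale. The libraries fall into 3 groups, so Pearson's r here mostly restates the order of the group means. For ALDH1A1 the likest were NECTIN4 (r = 0.998) and KRT15 (0.997), and 7.69% of the candidates exceeded 0.95. NECTIN4, an adhesion protein of epithelia, averaged 9.18 ± 0.602 FPKM in OL+EV, 15 ± 1.37 in OC and 4.38 ± 0.302 in DMSO+EV (SD, n = 3). CAV1 (0.993) and PARP1 (0.992) were likest for ALDH1A3, NRBP1 (0.998) and COMMD7 (0.997) for ALDH3A1, and C1QTNF6 (0.993) and EFHD1 (0.992) for ALDH3B1. ALDH3A2 had fewer close matches, with 0.0325% of the candidates over 0.95, led by ZNF185 (0.961) and NBEA (0.951). For ALDH7A1 the likest were the ribosomal pseudogenes RPS3AP26 (0.986) and RPL7P23 (0.984). ALDH9A1 had none over 0.95, with PITPNB at 0.918 and H3-3B at 0.914.

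Markers of other cells that could carry aldehyde dehydrogenases ranged from near 0 to high. The 5 hepatocyte markers summed to at most 0.0763 FPKM in any library. The leukocyte genes PTPRC and CD3E did not exceed 0.0352 and 0.0421 FPKM, and the fibroblast collagen genes COL1A2 and COL3A1 not 0.0373 and 0.0348, while COL1A1 reached 6.04. The sum over the 8 leukocyte markers was 8.93 to 10.5 FPKM in OL+EV, 10.1 to 11.5 in OC and 4.5 to 5.71 in DMSO+EV, mostly from CSF1R. Over the 6 fibroblast markers with a row it was 3.35 to 3.75 in OL+EV, 5.6 to 6.23 in OC and 3.38 to 3.77 in DMSO+EV, and over the 5 endothelial ones 0.171 to 0.301, 0.942 to 0.972 and 3.57 to 4.13 in the same order. The 9 alveolar markers summed to 14.3 to 15.4 FPKM in OL+EV, 188 to 216 in OC and 10.2 to 11.8 in DMSO+EV. In OC this was nearly all LAMP3, at 198 ± 14.4 FPKM, a gene that interferon also induces. In OL+EV and DMSO+EV most of it came from AGER and ABCA3. AGER averaged 5.88 FPKM in OL+EV, 3.4 in OC and 5.74 in DMSO+EV, and ABCA3 4.74, 0.871 and 2.475. Against DMSO+EV both fell in OC, while ABCA3 and NAPSA rose in OL+EV. The surfactant genes SFTPC and SFTPB did not exceed 0.0225 and 0.0813 FPKM in any library, while SFTPD reached 1.37. The 13 mRNAs of mitochondrial DNA summed to 78970 to 101000 FPKM in OL+EV, 20120 to 21980 in OC and 78580 to 130600 in DMSO+EV. The top of the last range was replicate 1, with COX1 at 25760 FPKM against 17210 and 15760 in the other DMSO+EV libraries. Leaving that library out changed the call on ALDH3A1 in OC against OL+EV, as given above. FPKM of other genes depends on these 13 mRNAs through the library size. When totals were made equal over all other genes, the calls of OL+EV and OC against DMSO+EV on the 8 genes were the same. The part of these marker and mitochondrial levels in the results above was not tested.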

How the data were processed

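RNA sequencing of 9 H1975 libraries was read from 1 deposited table with a column per library, matched to samples by title. The 12 circular RNA samples of the series were not analysed here. The file names no unit. FPKM was inferred from fractional values and unequal column totals, and FPKM values were made by the authors before they were deposited. The tools listed, per the submitters' processing notes, are STAR, edgeR and Bowtie2 2.1.0, and the build hg38, without their roles. Whole-read steps were not seen among low values. Depth is thus unknown and no counting error is given.

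Genes with at least 1 FPKM in at least 3 libraries (13775) were fitted as log2(FPKM + 1) in 1 model of the 3 groups with limma 3.58.1 in R 4.3.3 (empirical Bayes with trend and robust variance). P-values were adjusted by Benjamini-Hochberg over all tested genes with a threshold of 0.05, and the step was tested on simulated data. There, 20 of 215 calls were false in OL+EV minus DMSO+EV, 6 of 199 in OC minus DMSO+EV and 14 of 211 in OC minus OL+EV. In the first and the last of these the false share was above the threshold of 0.05. The simulation changed only 100 genes by 1 and 100 by 2 on the log2 scale, far fewer than were called in the data. Its false share therefore does not give that of the real calls. Genes as low as ALDH1A1 in DMSO+EV were not among those changed in the simulation. The 8 genes and all lists were chosen with earlier results of these data known. All 8 genes are named. Of each other list, up to 3 called genes with the largest change per comparison were eligible for naming. Cell type markers and untested genes of the family were named outside this rule, called or not. Of the AHR list, NQO1 and CYP1A1 were named as well, after the data were seen. Genes of mitochondrial DNA were 13 mRNAs and 2 ribosomal RNAs. Positions and upstream sequences come from RefSeq (GRCh38.p14), in which 31617 symbols matched. Protein sequences were not used. Figures were drawn with Python 3.11.15 and matplotlib 3.10.9. Alternatives are given in the closing part.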

Additional observations from a re-analysis of the deposited data

How the results depend on the processing

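The 7 tested genes were refitted under 19 alternatives: pseudocounts of 0.1 and 5, no filter, a filter at 5 FPKM, 3 other scalings, no trend, the compared groups only, a replicate block, and each of the 9 libraries left out. The numbers of genes called against DMSO+EV in either direction were the same under these 19 for both treated groups. For OC against OL+EV, the number called higher was 1 in place of 2 with no filter and with the replicate block, 3 with median-of-ratios rescaling and with equal totals without mitochondrial genes, and ran from 1 to 3 when single libraries were left out; the cause was not tested. The replicate numbers did not pair the libraries (correlations of same-numbered libraries' deviations from -0.315 to 0.0358, with 0 of 9 pairs over 0.1), and under the replicate block ALDH9A1 had a log2 difference of 0.309 (limma adjusted p = 0.0511). Differences that were never called turned sign: ALDH7A1 in OL+EV minus DMSO+EV became -0.0323 with median-of-ratios rescaling, -0.0012 with quantile normalization and -0.00175 without OL+EV replicate 2, and ran from -0.0544 (without DMSO+EV replicate 1) to 0.072 when single libraries were left out. ALDH3A2 in OC minus DMSO+EV became 0.0232 with equal totals without mitochondrial genes and ran from -0.0994 to 0.0227 (without DMSO+EV replicate 3) when single libraries were left out. Leaving out ALDH1A1, an alternative chosen after seeing the data, gave 3 higher and 1 lower in OL+EV, and 2 higher and 2 lower in OC, against DMSO+EV. Without a filter ALDH2 had differences of 0.0799, 0.0567 and -0.0232 in OL+EV minus DMSO+EV, OC minus DMSO+EV and OC minus OL+EV, and none passed (limma adjusted p = 0.16, 0.296 and 0.695). Levels near 0, such as that of ALDH2, are limited by a depth that is unknown.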
